A study of Mus musculus with 10 samples.

Results

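Genes of matrix remodelling were followed in macrophages of lung metastases and of normal lungs, namely 7 matrix metalloproteinase genes (Mmp2, Mmp8, Mmp9, Mmp12, Mmp13, Mmp14 and Mmp19) and 3 genes for tissue inhibitors of metalloproteinases (Timp1, Timp2 and Timp3). They were chosen by name, and all 10 were found by symbol among the 24538 genes of the count files. The files hold 17 other genes of the same families, which served for comparison. A gene was tested where its mean FPKM, a level per transcript length and sequencing depth, was at least 1 in either group. This left 11571 genes of the whole data set, 9 of the 10 chosen genes and 2 of the 17 others.

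Matrix metalloproteinases are zinc-dependent endopeptidases that cut collagens, elastin and other proteins of the extracellular matrix, as well as growth factors and chemokines bound to it. Most are made as inactive proenzymes and secreted, whereas a few, such as the product of Mmp14, sit in the cell membrane and can activate others. Timp proteins bind the active site of these enzymes and block them, so the balance of both sides sets how much matrix is degraded. In the lung, macrophages are a known source of the elastase encoded by Mmp12.

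RNA was sequenced from 5 libraries of metastasis-associated macrophages (MAMs) and 5 libraries of resident alveolar macrophages (RAMs), all from wild type C57BL6/J mice of 8 to 10 weeks. MAMs were the CD11B+CD11C- macrophages of metastases dissected from lungs of females 11 days after 1000000 E0771-LG cells, a mouse mammary tumour line, had been injected into the tail vein at 6 to 8 weeks of age. RAMs were the CD11B-CD11C+ macrophages of lungs without tumour, and both subsets came from a gate on CD45, F4/80 and MRC1 without LY6C. The labels state that metastases of 2 to 4 mice went into each MAM sample, while the study's methods give 1 to 5 mice, so how many animals a MAM library averages over is uncertain, and inhibitors of transcription were present while the tissue was digested. Counts on genes ran from 55391447 to 87523247 per MAM library, with a median of 66942988, and from 50746305 to 72150650 per RAM library, with a median of 52760267. Levels are given as CPM, counts per 1000000 of the normalized library total, or as FPKM where genes are compared with each other. The groups differ in tissue, tumour and sorted subset together, and these cannot be told apart. In sorted bulk samples, fewer cells that express a gene and less RNA of it per cell cannot be told apart either.

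The labels were checked against marker genes. The 9 alveolar macrophage markers found in the files summed to 11398 ± 1183 CPM in RAMs (SD, n = 5), led by Chil3 at 9151 CPM, against 403 ± 126 CPM for MAMs (SD, n = 5), led by Marco at 232 CPM. The tenth name on that list, Siglec5, was not found in the files. The 5 markers of monocyte-derived cells summed to 6744 ± 475 CPM in MAMs against 79.1 ± 4.24 CPM in RAMs (SD, n = 5 each), and Itgam, which encodes CD11B, was the most abundant of them at 6270 and 64.3 CPM. As MAMs were sorted for CD11B and RAMs against it, most of this contrast follows from the gate and is no independent check. The other markers, named after their values were seen, were Ccr2 (444 against 14.0 CPM), Cx3cr1 (17.3 against 0.597), Ly6c2 (10.5 against 0.143) and Ly6c1 (1.67 against 0.117). General macrophage markers were high in both, with a sum of 25615 ± 2833 CPM in MAMs and 31731 ± 3443 in RAMs (SD, n = 5 each) that came mostly from Lyz2, at 20655 and 29172 CPM.

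Of the 9 chosen genes tested, 6 were differentially expressed with higher levels in MAMs. Differential expression here required levels more than 2-fold apart and p below 0.05 in the quasi-likelihood test of edgeR, after adjustment for all genes tested. They were 4 metalloproteinase genes, Mmp9, Mmp12, Mmp13 and Mmp14, and 2 inhibitor genes, Timp1 and Timp2. Of all genes tested, 15.3% were differentially expressed with higher levels in MAMs and 15.1% with lower levels. None of the 9 was differentially expressed with a lower level in MAMs in edgeR, DESeq2 or limma, and 0 were lower at an unadjusted p under 0.05 in edgeR. By the adjusted p alone, 7 of the 9 were higher and 0 lower, against 28.9% and 27.3% of all genes tested. The 5 MAM libraries lay above the 5 RAM libraries without overlap in 6 genes and below them in 0, against 23.7% and 21.2% of all genes tested. Mmp9, Mmp13, Mmp14, Timp1 and Timp3 passed the filter only through their level in MAMs, so they could be tested only because that level was the higher one, and the counts over the 9 genes lend no support to a direction of the family.

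**Figure D1:**
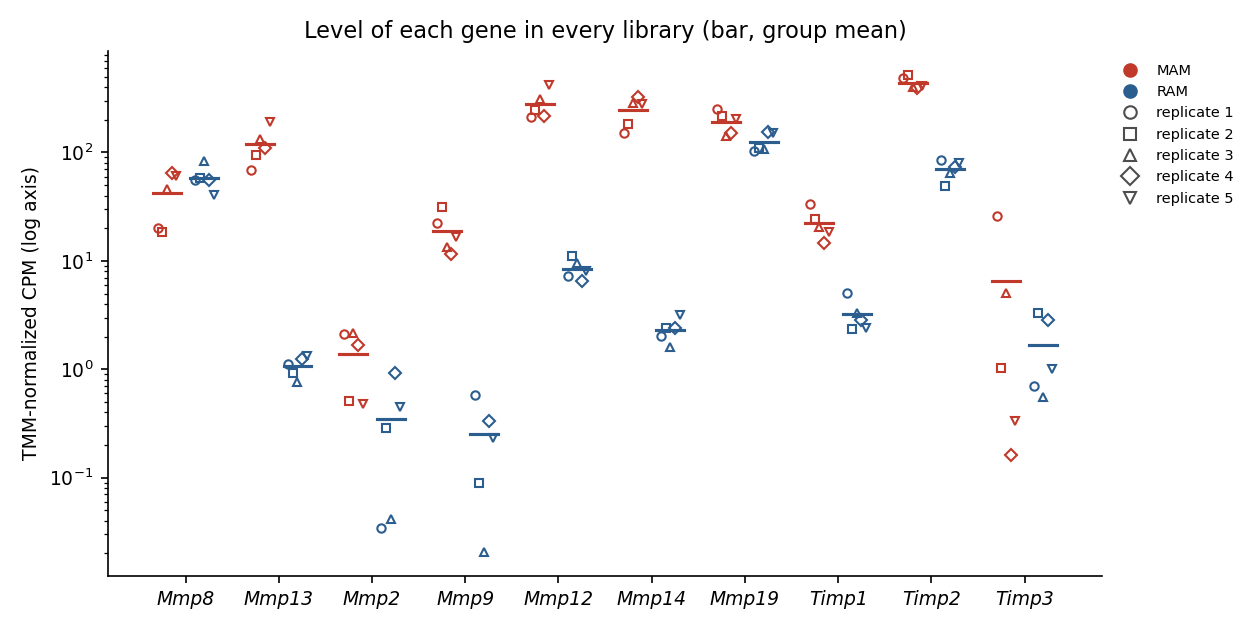
CPM of the 10 genes in each of the 10 libraries on a log axis, with MAMs in red, RAMs in blue, one symbol per replicate number and a bar at each group mean. Mmp9, Mmp12, Mmp13, Mmp14, Timp1 and Timp2 are separate between the groups, while Mmp2, Mmp8, Mmp19 and Timp3 overlap, and Timp3 in MAMs runs from 0.163 to 26.1 CPM.

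**Figure D2:**
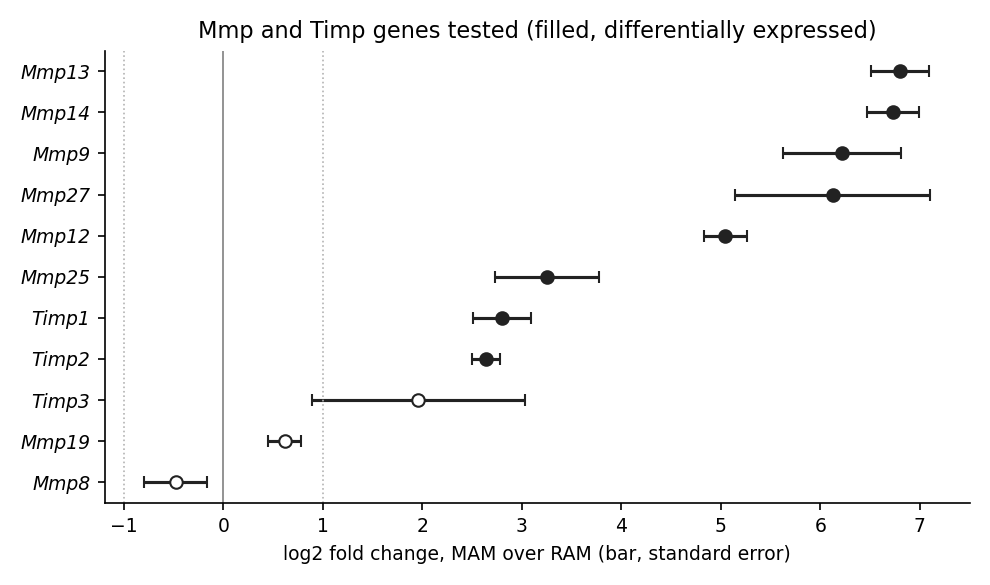
Log2 fold change of MAMs over RAMs with its standard error for the 11 Mmp and Timp genes tested, from edgeR. Filled points are differentially expressed, from Timp2 at 2.64 to Mmp13 at 6.80, and open points are Timp3, Mmp19 and Mmp8, with dotted lines at a fold change of 2 in either direction.

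Collagenases open the triple helix of fibrillar collagens. Mmp13 encodes the main interstitial collagenase of rodents and Mmp8 the collagenase stored in neutrophil granules, and both genes lie with Mmp12 in a row of metalloproteinase genes on chromosome 9. The table of RefSeq promoters on GRCm38.p6 used here holds entries for 7 of the 10 genes (Mmp8, Mmp12, Mmp13, Mmp14, Timp1, Timp2 and Timp3), and none for Mmp2, Mmp9 and Mmp19. The 250 bases before the start are shown for these 3 neighbours because Mmp12 and Mmp13 rose together and Mmp8 did not pass the test, with 2 windows for the 2 RefSeq starts of Mmp12. Capitals mark any of 5 motifs searched on both strands: AP-1 (TGANTCA), ETS (AGGAAG), Runx (TGTGGT), the TATA box (TATAAA) and the GC box (GGGCGG).
Mmp13, chr9:7272264-7272513, plus strand: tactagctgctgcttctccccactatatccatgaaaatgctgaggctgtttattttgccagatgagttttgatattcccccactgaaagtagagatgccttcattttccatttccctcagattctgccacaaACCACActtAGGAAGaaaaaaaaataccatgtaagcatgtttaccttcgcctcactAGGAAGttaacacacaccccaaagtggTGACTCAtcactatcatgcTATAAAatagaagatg
Mmp12, chr9:7344147-7344396, plus strand: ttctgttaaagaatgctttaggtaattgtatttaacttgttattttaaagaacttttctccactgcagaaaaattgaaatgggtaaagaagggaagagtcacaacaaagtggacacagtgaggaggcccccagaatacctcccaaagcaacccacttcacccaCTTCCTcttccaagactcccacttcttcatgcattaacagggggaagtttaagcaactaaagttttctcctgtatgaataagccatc
Mmp12, chr9:7347124-7347373, plus strand: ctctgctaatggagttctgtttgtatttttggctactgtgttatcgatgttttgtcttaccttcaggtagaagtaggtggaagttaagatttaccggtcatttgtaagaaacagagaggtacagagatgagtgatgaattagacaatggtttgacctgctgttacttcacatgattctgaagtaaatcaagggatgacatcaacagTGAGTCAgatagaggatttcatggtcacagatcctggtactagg
Mmp8, chr9:7558179-7558428, plus strand: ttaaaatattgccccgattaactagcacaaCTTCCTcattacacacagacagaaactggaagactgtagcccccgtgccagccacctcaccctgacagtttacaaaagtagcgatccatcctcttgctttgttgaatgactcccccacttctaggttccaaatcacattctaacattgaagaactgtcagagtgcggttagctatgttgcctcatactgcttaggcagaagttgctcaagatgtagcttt
The Mmp13 window holds an AP-1 match at -35 to -29 from the start, a TATA box at -16 to -11, ETS matches at -109 to -104 and -62 to -57 and a Runx match on the other strand at -118 to -113. The first Mmp12 window has a single ETS match and the second a single AP-1 match, at -44 to -38. The Mmp8 window holds an ETS match only. Of 32851 windows of this length in the RefSeq table, 6.75% hold the AP-1 letters, 29.5% the ETS letters, 14.0% the Runx letters, 12.4% the TATA box and 32.7% the GC box, and none of the matches in these 4 windows share bases. A match describes the letters and is no evidence of binding.

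Mmp13 and Mmp14 had the highest log2 fold changes of the 10 genes, but the order at the top is not firm. Mmp14 came before Mmp13 with limma on log2(FPKM + 1) and without MAM replicate 5, and Mmp9, at 6.81, came before Mmp14, at 6.68, without RAM replicate 1. Mmp13 was at 68.9, 94.8, 133, 111 and 192 CPM in MAM replicates 1 to 5 and at 1.11, 0.931, 0.766, 1.25 and 1.32 CPM in RAM replicates 1 to 5. Every MAM library lay far above every RAM library, and replicate 5 was the highest and replicate 1 the lowest of the MAMs. Between the groups the difference was 6.80 in log2 fold change, with a standard error of 0.289 (edgeR, adjusted p = 2.95e-11), place 104 from the top among all genes tested. Mmp13 (ENSMUSG00000050578.10) spans chr9:7272514-7283331 on the plus strand, has 10 exons and is not overlapped by another gene in GENCODE M21. Scaled to library totals alone, Mmp13 in RAMs was at 1.04% of its MAM level, and the lowest such share among the 86 genes above 1000 CPM in MAMs was 1.06%. With 1% of the other group's level subtracted from the counts, the log2 fold change of Mmp13 was 11.7, so its size depends on how the few RAM counts, 37 to 65 per library, are read.

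Mmp8 did not pass the test. It was at 19.9, 18.4, 46.0, 64.7 and 60.8 CPM in MAM replicates 1 to 5 and at 55.5, 57.9, 83.2, 55.6 and 40.3 CPM in RAM replicates 1 to 5. MAM replicates 1 and 2 were below all RAM libraries, and the other MAM libraries lay within the range of the RAMs. The edgeR fit put the log2 fold change at -0.48 with a standard error of 0.317 and an adjusted p of 0.217, and the exact permutation test on CPM gave p = 0.214 (two-sided, n = 5 each). The header of the FPKM table lists replicates 1 to 3 of both groups before replicates 4 and 5. Within replicates 1 to 3 the log2 fold change of Mmp8 was -1.22 and passed the threshold, and within replicates 4 and 5 it was 0.39 and did not, a division chosen after seeing the data. Markers of neutrophils, the cells best known for Mmp8, summed to 104, 130, 172, 247 and 157 CPM in MAM replicates 1 to 5 and to between 93.1 and 121 CPM in RAMs. Csf3r led that list in both groups, at 146 CPM in MAMs and 68.4 in RAMs, Elane had no count in any of the 10 libraries, and Ly6g had none in any RAM library. Of the 11 neutrophil markers 4 were tested, with 3 differentially expressed upward in MAMs and 1 downward, and the upward count was 1 without MAM replicate 4 or without RAM replicate 4. Over all genes tested the shares were 15.3% upward and 15.1% downward. The part of such cells in the Mmp8 values was not tested.

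Gelatinases cut denatured collagen and the type IV collagen of basement membranes. Mmp9 encodes gelatinase B, made by many leukocytes, and Mmp2 encodes gelatinase A, made mainly by stromal cells. Mmp9 was at 22.2, 31.1, 13.4, 11.5 and 16.7 CPM in MAM replicates 1 to 5 and at 0.582, 0.0901, 0.0207, 0.334 and 0.234 CPM in RAM replicates 1 to 5. All MAM libraries were above all RAM libraries, where Mmp9 had between 1 and 34 counts. In edgeR this made a log2 difference of 6.21 ± 0.592 (standard error; adjusted p = 3.17e-07). On log2(FPKM + 1) with limma it was 2.77, a scale that understates the change of a gene with few reads. Mmp9 (ENSMUSG00000017737.2) lies at chr2:164940780-164955850 on the plus strand and has 13 exons.

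Mmp2 was under the filter, with a mean of 0.377 FPKM in MAMs and 0.117 in RAMs. It had 104, 27, 97, 93 and 33 counts in MAM replicates 1 to 5 and 2, 19, 2, 44 and 21 counts in RAM replicates 1 to 5. In CPM this came to 1.39 ± 0.842 in MAMs and 0.345 ± 0.364 in RAMs (SD, n = 5 each), and 3 MAM libraries were above the highest RAM library while 2 lay within the RAM range. The exact permutation test on CPM gave p = 0.0397 (two-sided, n = 5 each), with a log2 ratio of the means of 2.01. That p was between 0.0635 and 0.0873 without MAM replicate 1, 3 or 4 or without RAM replicate 1, 2, 3 or 5, and it was 0.0714 on FPKM. Under edgeR's own filter, which let Mmp2 be tested among 13854 genes, the adjusted p was 0.0922, and without any filter it was 0.112, so the p of Mmp2 fell on both sides of 0.05 while its log2 ratio was 1.69 to 2.78, upward, in all of them.

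Mmp12 encodes macrophage elastase, which cuts elastin. It was at 214, 246, 312, 217 and 415 CPM in MAM replicates 1 to 5 and at 7.29, 11.04, 9.61, 6.55 and 8.01 CPM in RAM replicates 1 to 5. The groups were far apart, and replicate 5 was the highest of the MAMs, as for Mmp13. Between the groups the difference was 5.04 in log2 fold change, with a standard error of 0.216 (edgeR, adjusted p = 3.11e-11). In RAMs Mmp12 was at 3.50% of its MAM level on library totals. Mmp12 (ENSMUSG00000049723.14) spans chr9:7344381-7369499 on the plus strand, and its exons share 157 bases with those of Mmp1b on the other strand. Mmp1b had at most 14 counts in any library, against at least 314 for Mmp12.

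Mmp14 encodes a metalloproteinase anchored in the membrane, which cuts fibrillar collagen at the cell surface and activates the product of Mmp2. The 250 bases before its RefSeq start are shown with those of Timp1 and Timp2, the inhibitor genes that rose with it, with the same 5 motifs in capitals.
Mmp14, chr14:54431348-54431597, plus strand: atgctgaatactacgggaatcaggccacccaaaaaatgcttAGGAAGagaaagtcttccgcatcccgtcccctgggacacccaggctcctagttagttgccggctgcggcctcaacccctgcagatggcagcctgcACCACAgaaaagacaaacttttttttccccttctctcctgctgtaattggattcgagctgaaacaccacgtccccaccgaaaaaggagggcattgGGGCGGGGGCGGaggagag
Timp1, chrX:20869916-20870165, plus strand: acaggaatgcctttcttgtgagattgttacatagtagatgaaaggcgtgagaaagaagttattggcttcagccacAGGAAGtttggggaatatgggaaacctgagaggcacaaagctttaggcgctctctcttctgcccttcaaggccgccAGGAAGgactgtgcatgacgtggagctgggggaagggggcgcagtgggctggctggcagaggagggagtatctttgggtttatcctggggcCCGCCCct
Timp2, chr11:118355412-118355661, minus strand: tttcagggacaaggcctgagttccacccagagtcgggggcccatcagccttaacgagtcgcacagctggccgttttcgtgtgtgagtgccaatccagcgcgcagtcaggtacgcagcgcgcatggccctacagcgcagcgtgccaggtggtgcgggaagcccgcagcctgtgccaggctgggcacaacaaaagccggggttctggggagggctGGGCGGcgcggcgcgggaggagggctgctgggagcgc
None of these 3 windows holds the AP-1 letters or the TATA box. All 3 hold the GC box, the Mmp14 window in 2 adjoining copies, and the share of G and C is 55.2% for Mmp14, 54.4% for Timp1 and 68.0% for Timp2, against 40.4% for Mmp13 and a median of 52.4% over all windows. Mmp14 has 1 ETS match and 1 Runx match, Timp1 has 2 ETS matches, and Timp2 has neither. The window of Timp3, which did not pass the test, is not shown. It also holds a GC box and an ETS match, and its share of G and C is 65.6%.

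Mmp14 was at 152, 181, 289, 327 and 282 CPM in MAM replicates 1 to 5 and at 2.02, 2.40, 1.59, 2.38 and 3.20 CPM in RAM replicates 1 to 5. No MAM library came near the RAM range, and replicates 1 and 2 were the lowest of the MAMs. The edgeR fit put the log2 fold change at 6.73 with a standard error of 0.259 and an adjusted p of 8.89e-12, the smallest p of the 10 genes. Its RAM level was 1.08% of its MAM level on library totals, close to the 1.06% that was the lowest share among abundant genes, and with 1% subtracted the log2 fold change was 10.9. What part of the RAM counts of Mmp13 and Mmp14 comes from RNA shared between the groups' libraries was not tested. Mmp14 (ENSMUSG00000000957.11) lies at chr14:54431612-54445364 on the plus strand with 10 exons.

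Mmp19 encodes a secreted metalloproteinase found in many resting tissues and had the highest median FPKM of the 7 metalloproteinase genes in RAMs. It was at 251, 218, 141, 150.5 and 202 CPM in MAM replicates 1 to 5 and at 103, 111, 108, 154 and 153 CPM in RAM replicates 1 to 5. MAM replicates 3 and 4 lay within the RAM range and the other 3 above it. Mmp19 levels in MAMs exceeded those in RAMs by 0.61 ± 0.164 on the log2 scale (standard error; edgeR, adjusted p = 0.00492), which is under the 2-fold limit. The exact permutation test gave p = 0.0476 (two-sided, n = 5 each), and between 0.0635 and 0.0794 without MAM replicate 1, 2 or 5 or RAM replicate 1, 2 or 3. On FPKM the exact permutation test gave p = 0.0159, with a log2 ratio of 0.70. Within replicates 4 and 5 alone the log2 fold change was 0.20 and did not pass. Exons of Mmp19 (ENSMUSG00000025355.7, chr10:128790910-128800824, plus strand) share 789 bases with Tmem198b on the other strand, which had 283 to 682 counts per library, against at least 5229 for Mmp19.

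Of the inhibitors, Timp2 was the most abundant. Its product both inhibits metalloproteinases and takes part in the activation of the Mmp2 proenzyme by the Mmp14 product. Timp2 was at 483, 523, 399, 390.1 and 408 CPM in MAM replicates 1 to 5 and at 85.2, 49.2, 64.5, 73.5 and 80.5 CPM in RAM replicates 1 to 5. The groups were separate, and the MAM libraries were close to each other. In edgeR this made a log2 difference of 2.64 ± 0.142 (standard error; adjusted p = 4.14e-10), with the smallest standard error of the 9 genes tested. Timp2 (ENSMUSG00000017466.9) is on the minus strand at chr11:118301069-118355740 and overlaps Cep295nl without sharing exon bases.

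Timp1 encodes an inducible secreted inhibitor. It was at 33.8, 24.4, 20.6, 14.7 and 18.3 CPM in MAM replicates 1 to 5 and at 5.07, 2.34, 3.33, 2.86 and 2.41 CPM in RAM replicates 1 to 5. All MAM libraries were above all RAM libraries, and replicate 1 was the highest of each group. Between the groups the difference was 2.80 in log2 fold change, with a standard error of 0.29 (edgeR, adjusted p = 7.98e-07). On the deposited FPKM the ratio of the means was 40.4, from 29.4 ± 9.18 in MAMs and 0.728 ± 0.62 in RAMs (SD, n = 5 each), against 6.98 on CPM, and limma on log2(FPKM + 0.1) gave a log2 fold change of 5.41. The direction was the same on both scales and the size was not, and the cause of the gap was not tested. Timp1 (ENSMUSG00000001131.11, chrX:20870166-20874735, plus strand) lies inside Syn1, a gene on the other strand that had 3060 to 7354 counts per library, and shares no exon bases with it.

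Timp3 encodes an inhibitor that binds to the matrix itself. It was at 26.1, 1.03, 5.05, 0.163 and 0.33 CPM in MAM replicates 1 to 5 and at 0.702, 3.27, 0.559, 2.84 and 1.002 CPM in RAM replicates 1 to 5. MAM replicate 1 was far above all other libraries, with 1284 counts against 9 to 226 in the other MAM libraries, and MAM replicates 4 and 5 were below all RAM libraries. The log2 fold change of 1.96 did not pass (standard error 1.07, adjusted p = 0.134, edgeR), and the exact permutation test gave p = 0.532 (two-sided, n = 5 each). Without MAM replicate 1 the log2 fold change was -0.03, and with the replicate block, the replicate number as a term of the fit, it was -0.12. Within replicates 1 to 3 it was 2.81 and passed (adjusted p = 0.0426, edgeR), and within replicates 4 and 5 it was -2.94 and did not (adjusted p = 0.0697, edgeR), so no direction is given for Timp3. Fibroblast and stroma markers summed to 57.2, 16.3, 50.02, 19.6 and 45.9 CPM in MAM replicates 1 to 5 and to between 12.5 and 17.9 CPM in RAMs, and MAM replicate 1 had the highest sum. Tagln led that list, at 8.95 CPM in MAMs and 7.93 in RAMs, and Lum had no count in any MAM library. Of the 10 stroma markers, all named after their values were seen apart from Tagln and Lum, Col1a1 and Col3a1 were highest in replicate 1 among the MAM libraries, Col1a2, Dcn and Pdgfra in replicate 3, and Pdgfrb, Col6a1, Acta2 and Tagln in replicate 5. The collagen genes Col1a1, Col1a2 and Col3a1 had their 2 highest MAM levels in replicates 1 and 3, as Timp3 had. Col1a1 was at 13.1, 0.206, 10.6, 0.271 and 1.896 CPM, Col1a2 at 5.51, 0.0562, 6.44, 0.0543 and 1.02 CPM and Col3a1 at 18.0, 0.469, 6.28, 0.543 and 0.819 CPM in MAM replicates 1 to 5. Of the 10 stroma markers 4 were tested, and 2 were differentially expressed, both upward in MAMs, against 0 by limma on log2(FPKM + 1), and both had passed the filter only through MAMs. Over all genes tested 15.3% were differentially expressed upward and 15.1% downward. Endothelial markers in MAM replicate 1 summed to 29.1 CPM, the lowest of the MAM libraries. Krt18, a keratin gene on the list of epithelial and tumour cell markers, named after its values were seen, had 435 counts in MAM replicate 1 and 0 to 9 in the other MAM libraries, so it stood apart in the same library as Timp3. The summed epithelial and tumour cell markers were at 25.05 CPM in that library, with Krt18 at 8.84 CPM of it, and at 17.5 to 26.3 CPM in the other MAM libraries. Krt19 was also highest in MAM replicate 1, at 10.9 CPM. Cdh1, Sftpc and Scgb1a1, named after their values were seen, were lowest there among the MAM libraries, at 1.83, 0.244 and 0.0813 CPM. Krt8 and Epcam, also named after their values were seen, were highest in MAM replicate 3, at 3.31 and 0.827 CPM. In MAM replicate 1 they were at 1.44 and 0.549 CPM. The part of other cells in the Timp3 values was not tested. Exons of Timp3 (ENSMUSG00000020044.13, chr10:86300372-86349506, plus strand) share 1733 bases with those of Syn3 on the other strand, which had 143 to 694 counts per library, so its counts are uncertain to that extent.

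The MAM libraries also differed among themselves in a pattern that several genes shared. Replicates 1 and 2 had the lowest CPM of the 5 MAM libraries for Mmp8, Mmp13 and Mmp14 and the highest for Mmp9, Mmp19, Timp1 and Timp2. Several marker sums divided the MAM libraries in the same way. Replicates 1 and 2 had the lowest sums of neutrophil markers and of endothelial markers, the latter at 29.1 and 59.3 CPM against 78.0 to 114, and the highest sums of macrophage markers, at 28018 and 27822 CPM against 21080 to 26240, and of monocyte-derived markers, at 7092 and 7357 CPM against 6224 to 6662. Lyz2 and Itgam carry the last 2 sums, and other markers of these lists went the other way, such as Cd68 at 1694 and 1730 CPM against 2013 to 2073 and Ly6c1 at 0.183 and 0.45 CPM against 1.18 to 5.19, both named after their values were seen. Csf3r carries the neutrophil sum, and S100a9 was also lowest in replicates 1 and 2. S100a8 and Cxcr2 were lowest in replicate 3, at 2.42 and 1.59 CPM. Ly6g had 17 counts in replicate 1 and 0 in replicates 4 and 5. S100a8, S100a9 and Cxcr2 were named after their values were seen. Marco, the most abundant alveolar marker in MAMs, was also highest there, at 389 and 320 CPM against 89.7 to 213, but other markers of that list did not follow it, such as Fabp4, named after its values were seen, at 8.66 and 7.76 CPM against 10.8 to 16.5. What sets these libraries apart was not tested, and no such pattern by replicate number was shared with the RAMs, whose Mmp8 was highest in replicate 3.

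**Figure D3:**
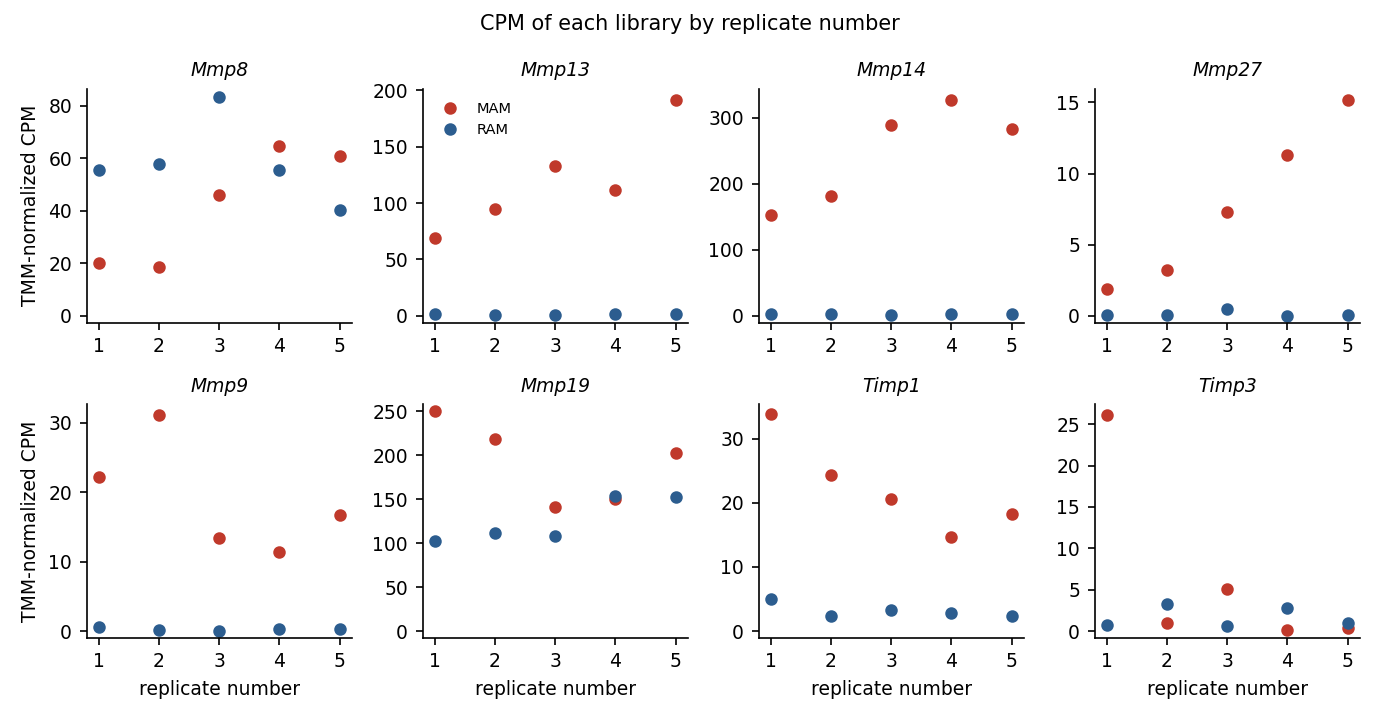
CPM of 8 Mmp and Timp genes by replicate number, with MAMs in red and RAMs in blue and each panel on its own axis from 0. Mmp8, Mmp13, Mmp14 and Mmp27 are lowest in MAM replicates 1 and 2, where Mmp9, Mmp19 and Timp1 are highest, and Timp3 is high in MAM replicate 1 alone.

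Levels of different genes were compared on FPKM. In MAMs the order by median FPKM was Timp2 (120.5), Mmp19 (84.0), Mmp14 (81.2), Mmp12 (56.8), Mmp13 (38.3), Timp1 (29.7), Mmp8 (17.0), Mmp9 (6.04), Mmp2 (0.361) and Timp3 (0.21). Timp2 did not overlap the next gene over the 5 libraries, nor did Mmp9 overlap Mmp2, but every other pair of neighbours in this order overlapped. In RAMs the order was Mmp19 (42.6), Timp2 (22.5), Mmp8 (20.5), Mmp12 (1.87), Mmp14 (0.75), Timp1 (0.396), Mmp13 (0.388), Timp3 (0.236), Mmp9 (0.131) and Mmp2 (0.0631). Here Mmp19 stood apart from Timp2, Mmp8 from Mmp12 and Mmp12 from Mmp14, and the other neighbours overlapped. RAMs thus had 3 of the 10 genes above 15 FPKM in every library, Mmp19, Timp2 and Mmp8, and the remaining 7 below 3 FPKM in every library. The place of Timp1 in RAMs rests on the deposited FPKM. On CPM per kilobase of exon, a scale chosen for this order after seeing the data, Timp1 in RAMs was at 2.64 to 5.71, above Mmp12 at 0.905 to 1.53 in every library, and Mmp8 came before Timp2, Mmp13 before Mmp14 and Mmp2 before Mmp9. In MAMs that scale placed Mmp13 before Mmp12 and left the other places as they were.

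Summed over the 7 metalloproteinase genes, FPKM was 278 ± 48.0 in MAMs and 73.2 ± 7.92 in RAMs (SD, n = 5 each). Mmp19 made up 65.1% ± 8.62 of the RAM sum, and Mmp8 30.3% ± 8.55 (SD, n = 5). In MAMs the sum was spread more evenly, over Mmp19 at 29.0% ± 9.68, Mmp14 at 25.3% ± 6.64, Mmp12 at 23.3% ± 3.15 and Mmp13 at 14.3% ± 3.07 (SD, n = 5), and the leading gene was Mmp19 in replicates 1 and 2, Mmp14 in replicates 3 and 4 and Mmp12 in replicate 5. The 3 inhibitor genes summed to 162 ± 26.2 FPKM in MAMs and 22.5 ± 4.39 in RAMs (SD, n = 5 each), with Timp2 at 81.4% ± 4.32 and 95.1% ± 1.72 of the sum. The ratio of summed Timp to summed Mmp FPKM was 0.827, 0.768, 0.528, 0.499 and 0.405 in MAM replicates 1 to 5 and 0.436, 0.234, 0.277, 0.286 and 0.319 in RAM replicates 1 to 5. MAM replicate 5 fell within the RAM range and the other 4 MAM libraries were above it. These sums compare RNA and say nothing of active enzyme, and as sums over chosen genes they carry no test.

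**Figure D4:**
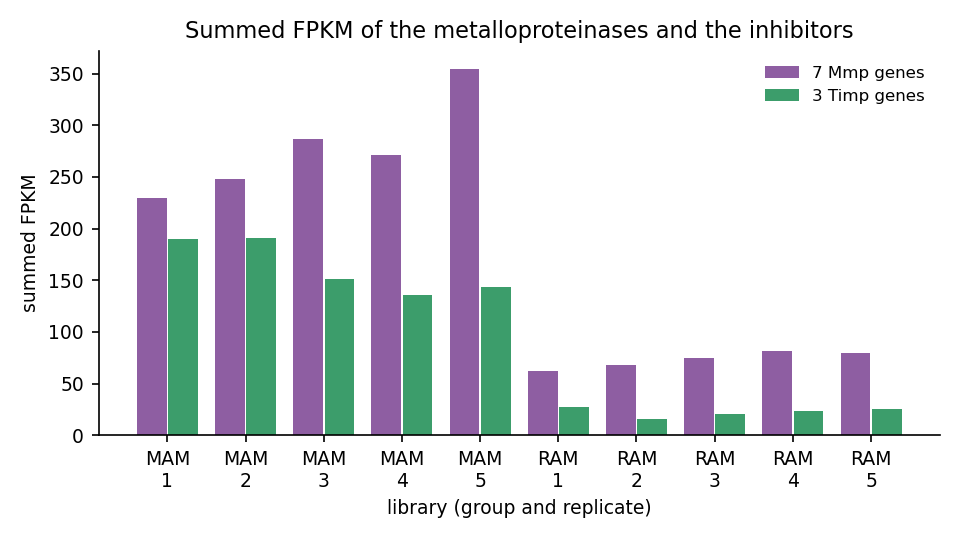
FPKM summed over the 7 Mmp genes (purple) and the 3 Timp genes (green) in each of the 10 libraries, on a linear axis from 0. The Mmp sums run from 229 to 354 in MAMs and from 62.4 to 81.5 in RAMs, and the Timp sums from 135 to 191 in MAMs and from 15.9 to 27.2 in RAMs.

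A row of 10 genes of the family lies on chromosome 9 of GRCm38, between 7272514 and 7699585. In the order Mmp13, Mmp12, Mmp1b, Mmp3, Mmp1a, Mmp10, Mmp8, Mmp27, Mmp20 and Mmp7, the mean FPKM in MAMs was 40.8, 65.5, 0.0334, 0.391, 0.00373, 0.205, 15.3, 2.56, 0 and 0. In RAMs, Mmp8 (21.9), Mmp12 (1.98), Mmp13 (0.365) and Mmp27 (0.0168) were the genes of the row with any FPKM. Levels were thus unequal between close neighbours, and Mmp27 starts 2910 bases beyond the end of Mmp8. Mmp27, which encodes a little-studied stromelysin-like enzyme, was higher in MAMs and differentially expressed, by 6.13 ± 0.98 on the log2 scale (standard error; edgeR, adjusted p = 7.31e-05), from 1.87, 3.24, 7.27, 11.3 and 15.2 CPM in MAM replicates 1 to 5. RAMs had 3, 2, 22, 0 and 1 counts of Mmp27 in replicates 1 to 5, and without RAM replicate 3 the log2 fold change was 8.06. Mmp3, a stromelysin gene, had 0, 37, 90, 0 and 67 counts in MAM replicates 1 to 5, and Mmp10, a related gene, had 1, 23, 50, 2 and 6, while neither had a count in any RAM library. Both were under the filter, and without any filter both passed in edgeR (adjusted p = 0.00756 for Mmp3 and 0.00919 for Mmp10). The groups of Mmp3 overlapped, since 2 MAM libraries were at 0, and its exact permutation p on CPM was 0.167 (two-sided, n = 5 each). Mmp10 had 1 and 2 counts in MAM replicates 1 and 4, fewer than the 3 that a count of 0 allows, so its groups cannot be called separate. Without a filter, 5 of the 17 other family genes were differentially expressed upward in place of 2. Mmp20 and Mmp7 had no count in any library, which allows up to 3 counts in each.

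**Figure D5:**
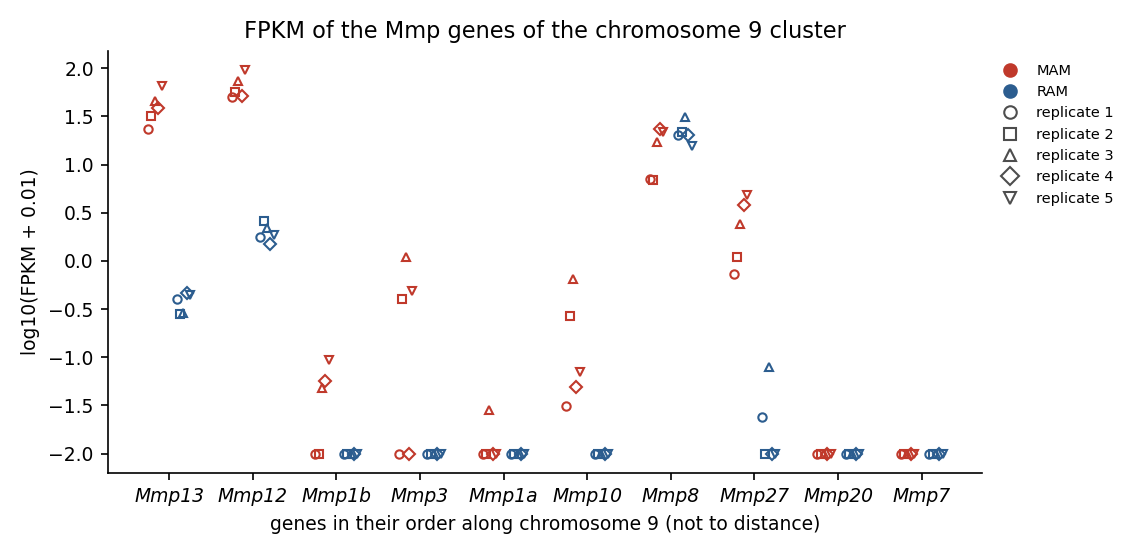
FPKM of the 10 Mmp genes of the chromosome 9 row in every library, as log10(FPKM + 0.01), with genes spaced evenly in their genomic order and a symbol per replicate number. Mmp13, Mmp12 and Mmp27 are higher in MAMs (red), Mmp8 overlaps between MAMs and RAMs (blue), and Mmp20 and Mmp7 are at 0 throughout.

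Elsewhere in the family, Mmp25, which encodes a leukocyte metalloproteinase held in the membrane by a lipid anchor and like Mmp27 passed the filter only through MAMs, was higher in MAMs and differentially expressed, by 3.26 ± 0.524 on the log2 scale (standard error; edgeR, adjusted p = 7.67e-05), at 6.58 ± 1.09 CPM in MAMs and 0.685 ± 0.352 in RAMs (SD, n = 5 each). On log2(FPKM + 1) with limma the value was 1.32, and that of Mmp27 was 1.66. The other 15 family genes were under the filter. Named after their values were seen, Mmp28 had 3 to 76 counts in MAM libraries and 0 to 20 in RAM libraries, with an exact permutation p of 0.0317 on CPM (two-sided, n = 5 each), and Mmp15 had 0 to 8 in MAM and 0 to 60 in RAM libraries, with an exact permutation p of 0.0476. Neither passed in edgeR without a filter, at an adjusted p of 0.108 for Mmp28 and 0.0908 for Mmp15. Mean CPM was lower in MAMs also for Mmp16, Mmp17, Mmp21, Mmp23 and Mmp24, with exact permutation p from 0.0556 to 1.0, while Timp4 had no count in any library.

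Of 10 proteases that activate proenzymes of metalloproteinases or act beside them, 5 were tested, and the list went both ways. Plau, the gene of urokinase, rose by a log2 fold change of 3.17 (128 against 14.3 CPM, adjusted p = 4.25e-10, edgeR). Ctsk, which encodes the collagen-cutting cathepsin K, fell by 2.41 on the log2 scale (27.1 against 144 CPM, adjusted p = 2.56e-05, edgeR). By the adjusted p alone 2 were higher and 2 lower, against 28.9% and 27.3% of all genes tested. The median log2 fold change was 0.14, against -0.02 over all genes tested. Over all genes tested 15.3% were differentially expressed upward and 15.1% downward. Of 9 other inhibitors, clearance receptors and binding partners, 5 were tested and 2 were differentially expressed, both upward, with a list median of 0.78. They were Thbs1, the gene of thrombospondin-1, at 2754 against 25.8 CPM with a log2 fold change of 6.74 (adjusted p = 2.71e-16, edgeR), and Sparc, at 23.1 against 2.45 CPM with 3.24 (adjusted p = 5.57e-05, edgeR). With 1% of the other group subtracted, Thbs1 was at 13.79.

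Of 8 surface or secreted partners, 7 were tested, and 2 were differentially expressed upward and 0 downward in edgeR, DESeq2 and limma, with a list median of 0.95. These counts stand against 15.3% upward and 15.1% downward of all genes tested, and with only 7 genes nothing is read from them. By the adjusted p alone 4 were higher and 1 lower, against 28.9% and 27.3% of all genes tested. The lower one was Cd44, the gene of a hyaluronan receptor, named after its value was seen, which fell by 0.94 on the log2 scale (1825 against 3499 CPM, adjusted p = 5.45e-09, edgeR). With upper-quartile scaling, which moved the median log2 fold change of all genes by -0.16, Cd44 was at -1.11, and 1 gene of the list was differentially expressed downward, as also within replicates 4 and 5 alone. The upward genes encode the integrin chains that pair on the cell surface, Itgav (252.4 against 74.6 CPM, log2 fold change 1.76, adjusted p = 1.26e-10, edgeR) and Itgb3 (11.02 against 2.13 CPM, log2 fold change 2.37, adjusted p = 0.0174, edgeR), of which Itgb3 passed the filter only through MAMs, overlapped between the groups and did not pass a test against a fold change of 2 or within replicates 4 and 5 alone. Without RAM replicate 5 its log2 fold change was 3.25, with the replicate block 3.20, and with limma on log2(FPKM + 1) it was 1.08. Among 21 genes of the related ADAM and ADAMTS proteases, 9 were tested, 4 rose and 2 fell by the criteria for differential expression, against 15.3% and 15.1% of all genes tested, and the median was 0.88. By the adjusted p alone 6 were higher and 2 lower, against 28.9% and 27.3% of all genes tested. Adam8, which encodes a leukocyte sheddase, was at 1965 against 21.3 CPM (log2 fold change 6.53, adjusted p = 2.01e-16, edgeR), and Adam19 at 17.9 against 0.901 CPM (4.31, adjusted p = 3.36e-07, edgeR). Adamts2, the gene of a procollagen peptidase, fell by 5.81 on the log2 scale (0.446 against 24.7 CPM, adjusted p = 2.66e-08, edgeR), and Adamts10 fell by 1.40 (18.0 against 47.6 CPM, adjusted p = 1.01e-05, edgeR). Adam19 had passed the filter only through MAMs and Adamts2 only through RAMs. With limma on log2(FPKM + 1), Adam19 was at 1.71 and Adamts2 at -1.99, and with 1% of the other group subtracted Adam8 was at 10.14.

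Of 15 genes for matrix substrates, 10 were tested, 9 were differentially expressed upward and 0 downward in edgeR, with 0 downward also in DESeq2 and limma and 0 lower at an unadjusted p under 0.05, against 15.3% upward and 15.1% downward of all genes tested. The median log2 fold change was 4.61. As 7 of the 10 passed the filter only through their level in MAMs, the filter largely fixed this direction and median, and no direction of the list is read from them. The other 3, which passed in both groups, were Fn1, Spp1 and Lamc1, a laminin gene named after its value was seen, and all 3 were differentially expressed upward. Tnc, the gene of tenascin-C, had the largest value, 8.07 (7.70 ± 8.07 CPM in MAMs, SD, n = 5, against 0.0266 in RAMs, adjusted p = 1.16e-05, edgeR), followed by Hspg2, which encodes perlecan, with 5.68 (15.6 against 0.305 CPM, adjusted p = 4.12e-08, edgeR). With limma on log2(FPKM + 1), Tnc was at 0.91 and Hspg2 at 1.05, so the size of both depends on the scale. The smallest of the 9 were Fn1, the fibronectin gene, with 2.05 (6965 ± 2731 against 1678 ± 411 CPM, SD, n = 5 each, adjusted p = 3.23e-06, edgeR), and Spp1, the osteopontin gene, with 2.31 (1100.0 against 222 CPM, adjusted p = 4.35e-06, edgeR). Within replicates 4 and 5 alone Fn1 was at 1.32. Stroma markers, which share collagen genes with this list, were also higher in MAM than in RAM libraries in sum, at 37.8 ± 18.6 against 15.3 ± 2.09 CPM (SD, n = 5 each), and their part in the substrate values was not tested.

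All 11 transcription factors of the AP-1, ETS and Runx families on the list were tested, with a median of 0.18. Differentially expressed were 3 upward and 2 downward, against 15.3% and 15.1% of all genes tested. By the adjusted p alone 5 were higher and 4 lower, against 28.9% and 27.3% of all genes tested. Ets2 was at 338 against 72.9 CPM (log2 fold change 2.21, adjusted p = 9.19e-12, edgeR) and Fosl1 at 2.75 against 0.347 CPM (2.99, adjusted p = 0.00105, edgeR). Runx2 fell by 3.10 on the log2 scale (40.1 against 343 CPM, adjusted p = 1.33e-10, edgeR) and Fosb fell by 2.29 (104 against 510 CPM, adjusted p = 6.08e-07, edgeR). Of the 3 upward genes, Fosl1 and Ets1, the latter named after its value was seen, had passed the filter only through MAMs, and Fosl1 did not pass the test within replicates 4 and 5 alone.

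Markers of other cells were low beside those of macrophages in MAMs. The counts of each list below stand against 15.3% of all genes tested that were differentially expressed upward and 15.1% downward. Epithelial and tumour cell markers summed to 21.02 ± 4.27 CPM in MAMs and 673 ± 58.4 in RAMs (SD, n = 5 each), led in both by Krt19, at 6.09 and 436 CPM, and Esrp1 had no count in any MAM library. Of the 10, 7 were tested, 0 were differentially expressed upward and 6 downward in edgeR and also in DESeq2 and limma, and 1 was higher at an unadjusted p under 0.05. Of the 6 downward, 2 had passed the filter only through RAMs. Without MAM replicate 2, MAM replicate 4 or RAM replicate 4, 1 was upward. Most of the RAM sum came from Krt19, Cdh1 (131 CPM) and Epcam (76.8 CPM). Sftpc, Scgb1a1 and Sftpb were at 14.4, 10.4 and 4.28 CPM in RAMs and the rest of the list was lower. All but Krt19 were named here after their values were seen. Whether the RAM sum comes from epithelial cells or from the macrophages themselves was not tested. Endothelial markers summed to 73.1 ± 31.5 CPM in MAMs, led by Kdr at 29.0, and to 159 ± 33.5 in RAMs, led by Vwf at 151 (SD, n = 5 each), with 3 of 4 tested genes upward, all of which passed the filter only through MAMs, and 1 downward. Cldn5 had no count in any MAM library. Dendritic cell markers summed to 7.67 ± 4.24 CPM in MAMs, led by Zbtb46, and 21.9 ± 3.704 in RAMs, led by Clec9a (SD, n = 5 each), with 1 of 2 tested genes upward and 1 downward, each having passed the filter only through the group where it was higher, and 0 upward without MAM replicate 2 or RAM replicate 1, 3 or 4. Of the macrophage markers 3 of 7 were upward and 1 downward, and of the monocyte-derived markers 5 of 5 upward, 3 of which passed the filter only through MAMs. Itgam, among the monocyte-derived markers, encodes CD11B, on which the groups were sorted. Of the 9 alveolar markers 0 were upward, also at an unadjusted p under 0.05 and in DESeq2 and limma. The other direction held 8 of them, 1 of which passed the filter only through RAMs. Apart from Elane, every marker of the lists described here that was found in the files had a count in at least 1 library.

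For each of the 6 differentially expressed genes, the nearest genes outside the 10 were sought by the root mean square difference of log2 CPM over the 10 libraries, after each gene's own mean had been subtracted. Mmp14 was nearest to Tlr1, at 0.162, and Stab1, at 0.213. Tlr1 was also nearest to Mmp13, at 0.254, followed by Ccl7, at 0.263. The genes nearest to Mmp12 were Lat2 (0.256) and Etv5 (0.315), and those nearest to Mmp9 were Rgs18 (0.48) and Clec10a (0.578). Timp2 lay closest to Il2rg (0.156) and Ly6e (0.166), and Timp1 to Cfp (0.222) and Serpinb9 (0.232). With 10 libraries in groups this far apart, the measure mostly follows the difference between groups, and it carries no test.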

How the data were processed

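The authors aligned paired reads (Ovation RNA-Seq System V2 libraries, HiSeq) to GRCm38 with TopHat 2.0.13, took uniquely mapped reads into gene counts with HTSeq 0.6.1 (UCSC RefGene models) and deposited these raw counts by library. The authors also deposited FPKM from Cufflinks 2.2.1. A strand setting is not stated, so overlapping genes on opposite strands cannot be told apart. Tool versions follow the submitters' processing notes.

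Lines of the count files that name no gene held 56.5% ± 1.65 of the total over all lines in MAMs and 63.2% ± 0.898 in RAMs (SD, n = 5 each). They were left out, and these are shares of the summed lines, not of reads. Tested were genes whose mean FPKM reached 1 in either group, without 51 genes that had no count in any library. Groups were compared by quasi-likelihood fits in edgeR 4.0.16 under R 4.3.3, with TMM factors of 0.897 to 0.943 in MAMs and 1.07 to 1.10 in RAMs, Benjamini-Hochberg adjustment over 11571 genes and a prior count of 2 for log2 CPM. Single genes whose groups overlap were also compared by an exact permutation test of CPM, for which 5 against 5 libraries allow no p below 0.00794. Standard errors given with edgeR were derived from its output, as the absolute log2 fold change over the square root of the F statistic. No replicate libraries were identical. Counting limits take 3 counts as the most that a count of 0 allows, hold for counting error alone, since no molecular identifiers mark independent molecules. Alternatives were DESeq2 1.42.0, RLE and upper-quartile scaling, limma 3.58.1 on log2(FPKM + 1) or log2(FPKM + 0.1), edgeR's filter or none, a replicate block, edgeR's test of a difference beyond 2-fold, subtraction of 1% of the other group, CPM per kilobase of exon for summed levels, and each library left out. A term for replicates 1 to 3 against 4 and 5, each of these sets alone, FPKM in place of CPM in the permutation tests, and CPM per kilobase for the order of levels were chosen after seeing the data. The tests were tried on simulated counts first.

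Coordinates are from GENCODE M21 on GRCm38 and promoters from RefSeq on GRCm38.p6. The 10 genes and all lists were chosen with earlier results of these data known. Named were the 10 genes, the 2 highest and 2 lowest differentially expressed genes of each related list, the most abundant marker of each cell type described and those at 0, and the 2 genes nearest to each differentially expressed member. Others are said to be chosen after their values were seen or are family genes, genes that overlap a member or a list name missing from the files. Figures were drawn with matplotlib 3.10.9.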

Additional observations from a re-analysis of the deposited data

Results flagged for a closer look

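In 2 of 48 sets of 5 replicate values, 1 library lay far from the other 4, by a gap over the range above 0.71. Chance alone marks about 1 in 20 such sets. Timp3 in MAM replicate 1 was at 26.1 CPM, against 0.163 to 5.05 CPM in the other MAM libraries. Mmp27 in RAM replicate 3 was at 0.456 CPM, against 0 to 0.0514 CPM in the other RAM libraries, which is a difference of 22 counts against at most 3.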

How the results depend on the processing

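The 6 differentially expressed genes, Mmp9, Mmp12, Mmp13, Mmp14, Timp1 and Timp2, kept their direction and an adjusted p under 0.05 in all 138 refits, 23 for each, with log2 fold changes from 2.37 upward and adjusted p up to 0.001 (edgeR, DESeq2 or limma). Timp3 turned to -0.12 with the replicate block, to -0.0345 without MAM replicate 1 (range with a library left out -0.0345 to 2.34, and -0.0263 to 2.36 as the log2 ratio of mean CPM) and to -2.94 within replicates 4 and 5, and passed with 2.81 within replicates 1 to 3. Mmp8 passed with -1.22 within replicates 1 to 3, where 1 of the 10 genes was thereby differentially expressed downward, and was at 0.39 within replicates 4 and 5. Mmp19 did not pass within replicates 4 and 5 (0.20) or, at the same 0.61, in the test against a fold change of 2. In the exact permutation test Mmp19 lost its p under 0.05 without any of 6 single libraries (log2 ratio 0.50 to 0.71 over all 10 left out) and Mmp2 without any of 7 (1.72 to 2.78) and on FPKM (1.69). The cause was not tested. Over all genes, the test against a fold change of 2 left 1112 genes lower in MAMs, in place of 1745. Replicate numbers did not pair the samples: deviations from the group means correlated between libraries of the same number at -0.04 to 0.03, and only replicates 3 and 5 correlated best with their own number. Apart from Timp3, the replicate block changed no call or direction among the 9 genes tested. Ratios of summed Timp to Mmp FPKM stayed within 1 SD with CPM per kilobase or a library left out. Depth limits Mmp2 and Timp3, and in RAMs Mmp9, Mmp13, Mmp25 and Mmp27, which have fewer than 60 counts in some libraries.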
